A study of Homo sapiens with 18 samples.

Results

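The comparison described here sets RPE1 cells treated with ZM447439, a small-molecule inhibitor of Aurora kinases, against untreated RPE1 cells, both flow-sorted for 4N DNA content. It covers every gene with a mean of at least 0.5 RPKM (reads per kilobase of gene, scaled to library size) over the 18 libraries of the series, which took in 13037 of the 57773 Ensembl genes of the deposited table. RPE1 is an established human line of retinal pigment epithelium, and all groups come from this line. The 3 untreated 4N libraries and the 3 ZM447439 4N libraries are biological replicates per the series design. Set beside them are cytochalasin D 4N cells (3 libraries) and the untreated and ZM447439 cells sorted for 2N content (3 libraries each). Cytochalasin D blocks actin polymerisation and with it cytokinesis. Per the labels, all cells grew in DMEM with 10% FBS, exposure to the inhibitor was 24 h at 2.5 µM, and the sort followed a 60 min stain of the DNA with 2 µg/mL Hoechst. This treatment text stands on the labels of every library. No vehicle is named for the untreated cells, and neither a concentration nor an exposure time for cytochalasin D. Polyadenylated RNA was sequenced with a kit that does not mark strand.

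Aurora A works at centrosomes and spindle poles. Aurora B is the kinase of the chromosomal passenger complex, which corrects faulty attachments of chromosomes to the spindle and later drives cytokinesis; cells whose Aurora B is blocked can leave mitosis without dividing and re-enter G1 with a doubled genome. Diploid cells that have replicated and not yet divided have a 4N content, and so do tetraploid cells before replication. The sort reads DNA content, not phase. Genes of G2 and mitosis are switched through the DREAM and MuvB complexes, B-MYB and FOXM1, which act at CHR elements and nearby CCAAT boxes, while genes of DNA replication are governed by E2F factors. The kinase inhibitor p21 (CDKN1A), a target of p53, restrains both programmes.

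The implied size of the 6 libraries was 56995198 to 59382157 reads, and the tested genes whose values came out as whole reads held a median of 1411 reads per library. The values were reads per kilobase of genomic span, introns included, which lowers the RPKM of long genes. The filter left out 44736 genes of the table, in which 45103 of the 57773 genes had a value above 0 in any library. Among the untreated cells, all 8 markers of G2 and mitosis that were looked at were higher in the 3 4N than in the 3 2N libraries, by 2.24 to 8.17 times. Of the 16 markers of retinal pigment epithelium only BEST1, PMEL, OTX2, KRT8 and KRT18 passed the filter. The visual cycle gene RPE65 and the pigment gene TYR stayed below 0.01 RPKM in all 6 libraries. BEST1 shares 36.9% of its span with FTH1 and PMEL 31.3% with CDK2, both on the opposite strand. Without strand the reads there cannot be told apart, so the level of BEST1 may include reads of FTH1. Only CD68 passed of 17 blood cell markers. The summed level of the blood markers was 19.6 to 22.2 RPKM in untreated and 22.9 to 28.2 RPKM in ZM447439 libraries. Nearly all of it was CD68, at 19.4 to 22.0 and 22.4 to 27.9 RPKM, and CD3E and HBB were at 0 in all 6. Mesenchymal markers summed to 813 to 1002 against 652 to 706 RPKM, most of it VIM (743 to 908 against 586 to 613 RPKM). In each group 1 library stood apart. Untreated replicate 3 differed from the other two by 0.253 (root mean square of log2 differences over genes), while those differed by 0.166 from each other; for ZM447439 replicate 1 the values were 0.284 and 0.162. Results that rest on either are given with and without them.

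At an adjusted p under 0.05 (limma with Benjamini-Hochberg adjustment over the 13037 genes), 7190 genes (55.2%) differed between ZM447439 4N and untreated 4N cells. Of these, 2560 (19.6%) were higher and 4630 (35.5%) lower in ZM447439 cells. Changes of at least 2-fold were fewer and mostly falls: 163 genes (1.25%) rose and 429 (3.29%) fell by that much. The median over all genes tested was -0.07 on the log2 scale. RPKM are relative to the size of a library, and the split depended on it: rescaling to a common median ratio gave 3365 higher and 3665 lower genes, and rescaling to the reads summed over genes gave 3757 and 3001, with the median of all genes moved from -0.07 to 0.05. The genes changed by 2-fold or more were little touched, with 568 to 592 of the 592 still passing in the same direction in the settings that tested them all. For 3185 genes (24.4%) all 3 ZM447439 values lay above all 3 untreated values, and for 5273 (40.4%) all lay below.

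**Figure D1:**
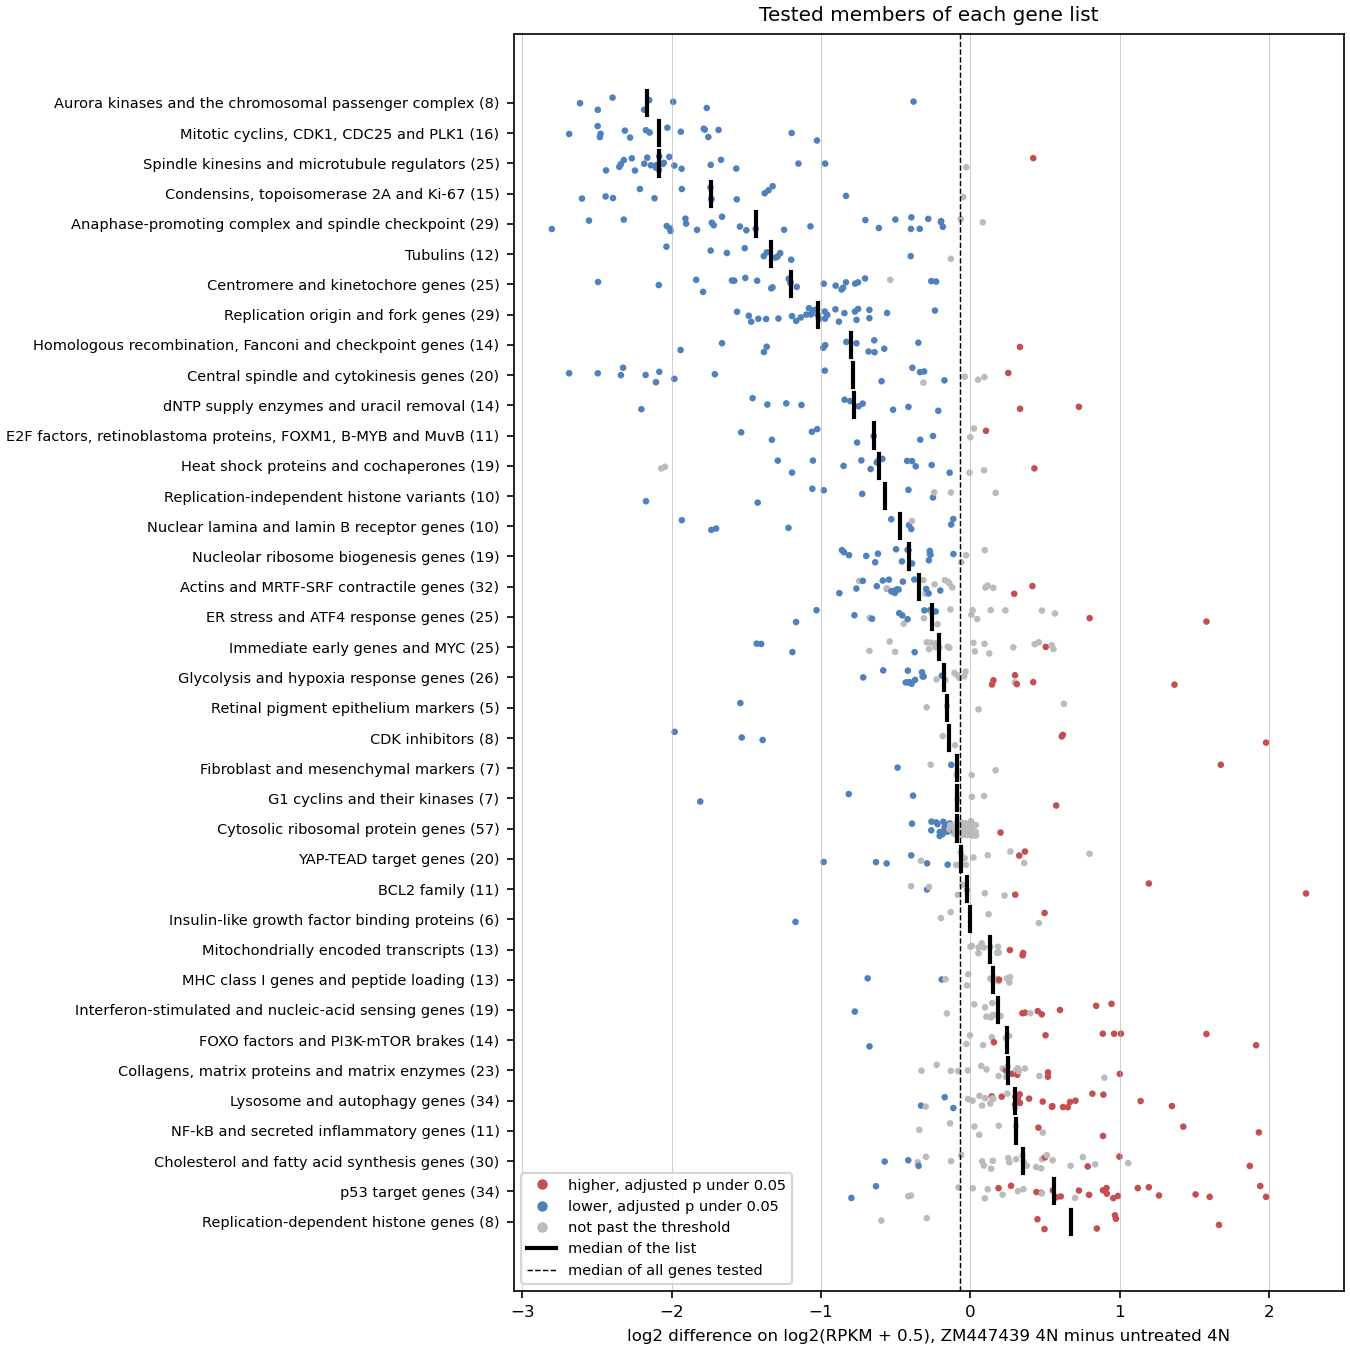
Log2 difference of ZM447439 4N minus untreated 4N on the log2(RPKM + 0.5) scale (horizontal axis) for every tested member of each gene list (rows, with the number tested), coloured red or blue where higher or lower at an adjusted p under 0.05 and grey otherwise. Black bars mark list medians and the dashed line that of all genes; the Aurora, mitotic cyclin and kinesin lists lie farthest to the left, with medians of -2.17, -2.09 and -2.08.

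Genes of mitosis fell together. Of the 16 tested members of the list of mitotic cyclins, CDK1, CDC25 and PLK1, all 16 fell by at least 2-fold, with a median of -2.09 against -0.07 for all genes tested; 3 more members were under the filter. All 8 tested genes of Aurora kinases and the chromosomal passenger complex fell as well, 7 of them by at least 2-fold (median -2.17). UBE2C, an E2 enzyme that works with the anaphase-promoting complex, had the largest fall among genes that passed: it stood at 47.1, 46.6 and 48.4 RPKM in the untreated libraries and at 5.93, 6.31 and 6.87 RPKM in the ZM447439 libraries, a log2 change of -2.80 ± 0.28 (SE, adjusted p = 1.01e-06). Every untreated value was more than 6 times the highest ZM447439 value. In bulk RNA of sorted cells, a smaller share of cells in G2 and mitosis and less RNA of these genes per cell cannot be told apart.

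The targets of the inhibitor were among the fallen genes. AURKB, the kinase of the passenger complex, read 19.5, 19.5 and 21.4 RPKM in untreated and 3.55, 2.90 and 3.03 RPKM in ZM447439 cells (log2 change -2.50 ± 0.17, adjusted p = 3.72e-08). AURKA, the kinase of spindle poles, went from 8.96, 8.69 and 9.37 to 1.04, 1.46 and 1.45 RPKM (-2.40 ± 0.19). The 3 replicates of each group lay close together in both genes, far from the other group. Of the partners of Aurora B, CDCA8 (borealin) fell most, from 10.6, 10.2 and 11.5 to 1.12, 1.49 and 1.42 RPKM (-2.61 ± 0.19). INCENP, the scaffold that activates the kinase, had a log2 change of -2.15 ± 0.13, and BIRC5 (survivin), which brings the complex to centromeres, one of -1.77 ± 0.22.

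The engine of mitotic entry moved in the same direction. PLK1, the Polo kinase that promotes entry and spindle assembly, had 29.8, 28.1 and 30.01 RPKM in untreated and 3.04, 4.77 and 4.82 RPKM in ZM447439 libraries (log2 change -2.69 ± 0.25). CDK1, the mitotic cyclin-dependent kinase, had 13.1, 13.5 and 14.8 against 2.37, 1.94 and 1.91 RPKM (-2.48 ± 0.25). CCNB1 (cyclin B1), its partner, had 22.9, 22.1 and 23.0 against 3.10, 4.94 and 5.06 RPKM (-2.28 ± 0.23). ZM447439 replicate 1 was the lowest of its group for PLK1 and CCNB1 and the highest for CDK1, and no ZM447439 value came near an untreated one. CCNA2 (cyclin A2, of S phase and G2) fell by 2.50, CCNF (cyclin F) by 2.17 and FAM83D, a spindle protein, by 2.48 on the log2 scale.

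Of 29 tested genes of the anaphase-promoting complex and spindle checkpoint 27 fell, 17 of them by at least 2-fold (median -1.44). CDC20, the coactivator that the checkpoint holds back, fell from 74.2, 72.2 and 73.3 to 8.66, 13.9 and 14.5 RPKM (log2 change -2.55 ± 0.28). ESPL1 (separase), which cuts cohesin at anaphase, fell from 4.79, 4.58 and 5.25 to 0.584, 0.584 and 0.553 RPKM (-2.32 ± 0.13). Here the ZM447439 values of CDC20 spread more than those of ESPL1, yet both genes had groups that did not overlap.

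At the centromere 24 of 25 tested genes fell (median -1.20): HJURP, the chaperone of the centromeric histone, by 2.49, CENPF by 2.09 and NDC80, the microtubule hook of the outer kinetochore, by 1.84. Of 25 spindle kinesins and microtubule regulators 23 fell and 1 rose (median -2.08), among the fallen PSRC1 (-2.44 ± 0.15), KIFC1 (-2.35 ± 0.15) and KIF23 (-2.34 ± 0.17). KIF20A, a kinesin of the central spindle, had 36.4, 34.2 and 32.6 RPKM in untreated and 5.19, 8.95 and 9.87 RPKM in ZM447439 cells (-2.08 ± 0.28). TROAP, a protein of the spindle, fell by 2.50. The list of central spindle and cytokinesis genes moved less, with 15 of 20 lower, 1 higher and a median of -0.78; it shares PLK1, AURKB and KIF23 with other lists.

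Chromosome structure followed. Of 15 tested condensin, topoisomerase 2A and Ki-67 genes 14 fell, 13 of them by at least 2-fold (median -1.74). MKI67 (Ki-67), a coat of mitotic chromosomes and a marker of cycling cells, fell from 39.2, 36.0 and 38.7 to 5.43, 5.57 and 6.56 RPKM (log2 change -2.60 ± 0.24). TOP2A, which untangles sister chromatids, fell from 40.8, 40.0 and 47.3 to 7.05, 7.84 and 8.24 RPKM (-2.39 ± 0.18), and KPNA2, an importin, from 70.5, 69.2 and 75.0 to 11.6, 13.1 and 13.5 RPKM (-2.44 ± 0.17). For all 3 genes the ZM447439 libraries kept a level above 5 RPKM, so these transcripts were still measured well above the filter.

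**Figure D2:**
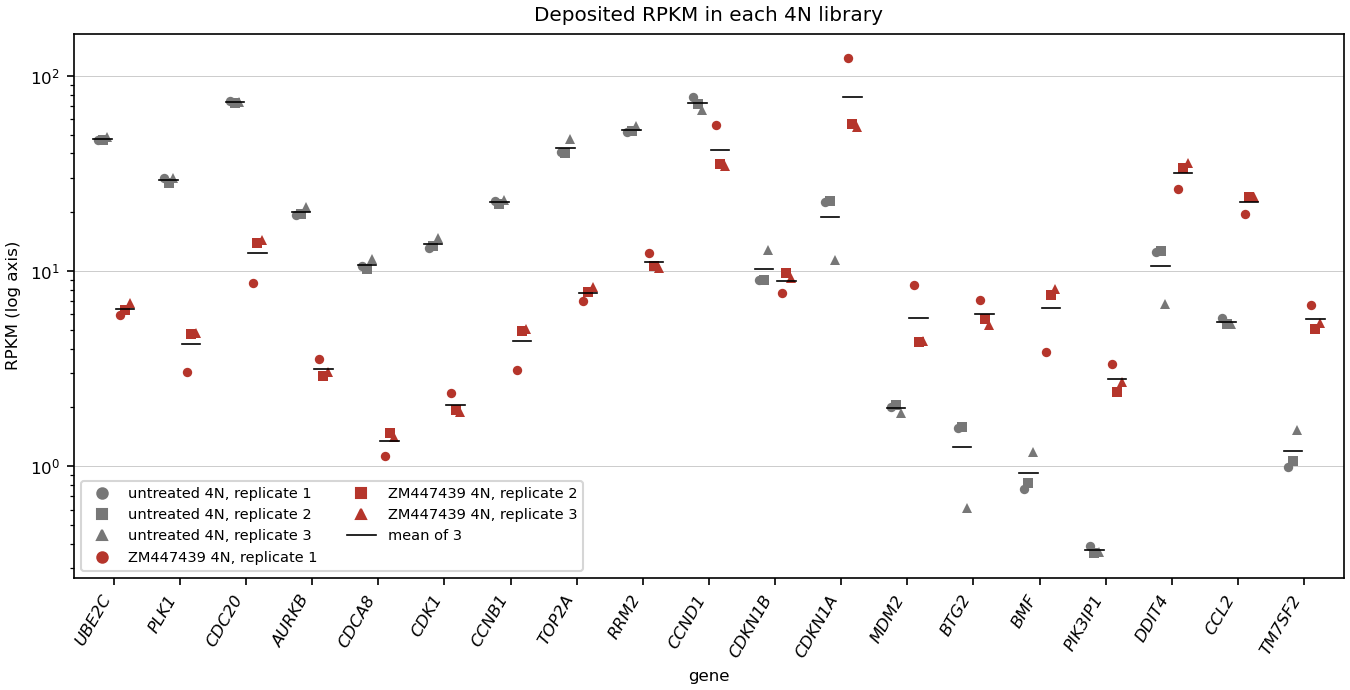
RPKM on a log axis of 19 named genes in each of the 3 untreated 4N (grey) and 3 ZM447439 4N (red) libraries, 1 point per library with a line at the mean of 3. From UBE2C to RRM2 the red points lie far below the grey ones, and for CDKN1A untreated replicate 3 (11.4) and ZM447439 replicate 1 (122.6) stand off from their groups.

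To show what the fallen genes share in sequence, promoters of 300 bases (250 before to 50 after the start, RefSeq, GRCh38.p14) were searched on both strands for CHR elements (the letters TTTGAA, with the palindrome TTCGAA as a further form), CCAAT boxes (as spelled) and E2F sites (TTTCGCGC, TTTGGCGC, TTTCCCGC or TTTGGCGG). Printed below are the mitotic genes with the greatest falls that hold both a CHR and a CCAAT match, and the replication or nucleotide supply gene with the greatest fall that holds an E2F match. Capitals mark the matches, in either orientation, and 5′ is on the left. They lie at chr16:23678639-23678938 (plus strand, PLK1), chr1:37692266-37692565 (plus strand, CDCA8), chr10:128126374-128126673 (minus strand, MKI67) and chr16:88803539-88803838 (plus strand, CDT1).
PLK1: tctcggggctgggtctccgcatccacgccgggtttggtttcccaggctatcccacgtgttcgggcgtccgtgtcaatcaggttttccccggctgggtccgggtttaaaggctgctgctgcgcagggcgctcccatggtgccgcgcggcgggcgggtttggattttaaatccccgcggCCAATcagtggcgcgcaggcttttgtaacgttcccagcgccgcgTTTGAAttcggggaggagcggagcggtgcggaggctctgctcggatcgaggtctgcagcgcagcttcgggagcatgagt
CDCA8: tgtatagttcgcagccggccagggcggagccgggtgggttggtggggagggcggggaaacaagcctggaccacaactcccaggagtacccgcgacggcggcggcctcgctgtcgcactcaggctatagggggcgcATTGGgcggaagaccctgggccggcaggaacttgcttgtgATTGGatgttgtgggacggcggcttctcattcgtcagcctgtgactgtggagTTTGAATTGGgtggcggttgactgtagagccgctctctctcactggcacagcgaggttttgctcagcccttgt
MKI67: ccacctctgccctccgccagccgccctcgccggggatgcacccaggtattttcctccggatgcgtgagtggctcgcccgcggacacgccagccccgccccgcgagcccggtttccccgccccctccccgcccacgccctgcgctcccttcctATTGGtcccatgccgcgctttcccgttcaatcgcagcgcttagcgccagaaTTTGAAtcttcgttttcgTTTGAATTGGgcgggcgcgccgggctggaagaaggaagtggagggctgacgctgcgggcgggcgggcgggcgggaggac
CDT1: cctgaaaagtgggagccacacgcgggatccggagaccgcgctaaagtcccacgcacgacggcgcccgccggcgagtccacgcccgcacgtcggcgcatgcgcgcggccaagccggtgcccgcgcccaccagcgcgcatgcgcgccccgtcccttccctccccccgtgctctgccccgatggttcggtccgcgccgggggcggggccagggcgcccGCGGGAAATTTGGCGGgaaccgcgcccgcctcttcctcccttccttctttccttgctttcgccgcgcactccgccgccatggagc
In PLK1 the CHR match TTTGAA begins 29 bases and the CCAAT match 73 bases before the start. In CDCA8 and MKI67 a CHR match shares its last base with a CCAAT box in reverse, so that the matches run into each other. In CDT1 a reversed E2F match begins 35 bases before the start and TTTGGCGG follows 27 bases before it.

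Matches were counted over all genes with a promoter in the RefSeq table. Of the 241 such genes that fell by at least 2-fold, 40.7% held a CHR match and 60.2% a CCAAT match, and 29.9% held both. Over the 6704 tested genes with a promoter the shares were 10.4%, 37.9% and 4.64%, and over all 27305 promoters they were 16.6%, 35.7% and 6.58%. Among the 50 that fell by at least 4-fold, 64% held both. The 64 genes that rose by at least 2-fold had 18.8% with CHR and 6.25% with both. By role and whatever their change, E2F matches were in 43.2% of the 37 tested replication and nucleotide supply genes with a promoter, 11.4% of the 114 mitotic genes, 11.5% of the 26 p53 targets and 5.67% of all tested genes. A CHR match was in 8.11%, 52.6% and 3.85% of the 3 lists in the same order. A match is a string of letters in a window, and binding of a factor was not measured.

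**Figure D3:**
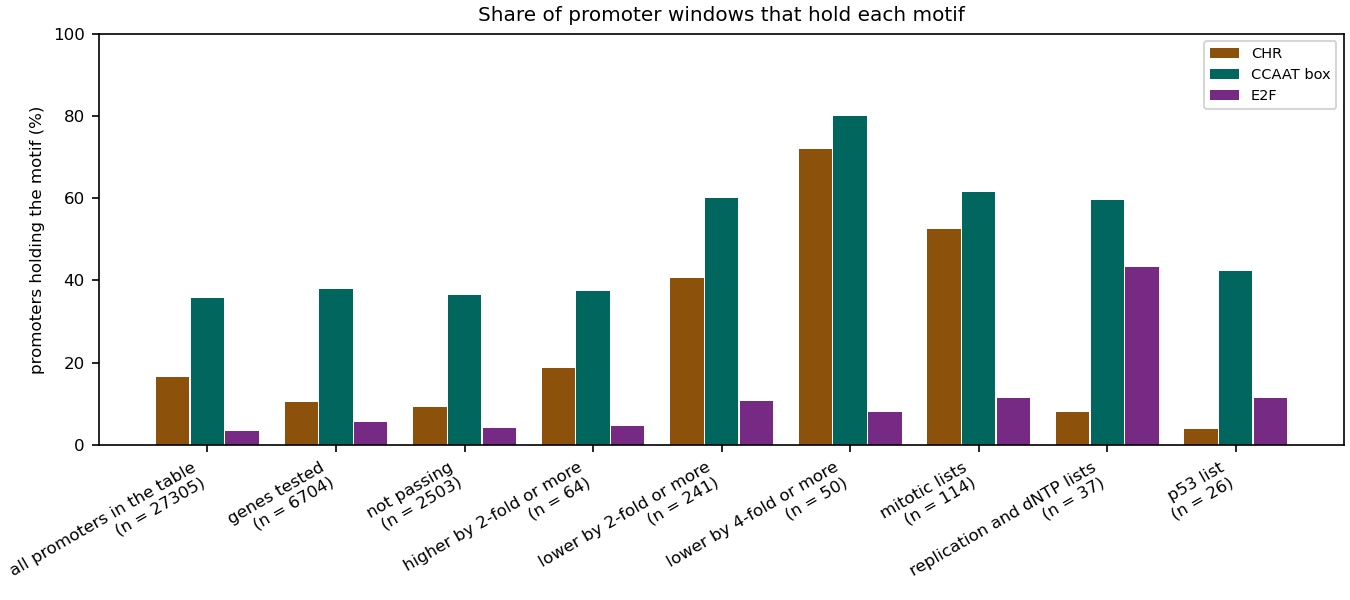
Percent of RefSeq promoters (vertical axis; 300 bases, both strands) with a CHR, CCAAT or E2F match in groups of genes set by their change in ZM447439 4N cells or by role. The bars for genes that fell by 4-fold or more reach 72% for CHR and 80% for CCAAT, and E2F peaks in replication and nucleotide supply genes at 43.2%.

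All 29 tested genes of replication origins and forks fell, 16 of them by at least 2-fold (median -1.02); 22 of the 52 listed were under the filter, so the list speaks for its shorter or more abundant members. CDT1, which loads the MCM helicase, had 7.42, 7.17 and 6.58 RPKM in untreated and 1.97, 2.10 and 2.10 RPKM in ZM447439 cells (log2 change -1.56 ± 0.10, adjusted p = 1.46e-08). MCM7, a subunit of that helicase, had 32.5, 32.2 and 32.6 against 10.2, 12.1 and 12.02 RPKM (-1.47 ± 0.075). The 6 libraries formed 2 tight and distant groups in both genes. FEN1, the flap nuclease of lagging strands, fell by 1.48, but 92.6% of its span lies within FADS2 in GENCODE 29 and the 2 genes' reads could be split or shared.

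Of 14 enzymes of nucleotide supply and uracil removal 12 fell and 2 rose. RRM2, the regulated subunit of ribonucleotide reductase, went from 51.6, 52.0 and 55.4 to 12.4, 10.7 and 10.4 RPKM (log2 change -2.20 ± 0.20), its partner RRM1 fell by 1.36, and TYMS, thymidylate synthase, by 1.46. UNG, the uracil glycosylase, was 1 of the 2 that rose: it read 1.39, 1.43 and 0.924 RPKM in untreated and 1.70, 1.71 and 1.65 RPKM in ZM447439 cells (0.33 ± 0.093, adjusted p = 0.00701), and its call was lost when the 6 libraries were fitted alone (adjusted p = 0.0616). Of 14 tested repair and checkpoint genes of homologous recombination and the Fanconi pathway 13 fell (median -0.80), led by UBE2T (-1.94 ± 0.11), FANCG (-1.66 ± 0.083) and RAD51AP1 (-1.38 ± 0.079). RRM2 overlaps AC007240.1, a gene model on the same strand, over 80.96% of its span, and the reads of the pair could be split or shared. TYMS overlaps ENOSF1 on the opposite strand over 20.4% of its span, and without strand the reads there cannot be told apart.

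The regulators of both programmes were lower too. MYBL2 (B-MYB), which works with MuvB at mitotic promoters, fell from 2.88, 2.79 and 2.81 to 0.725, 0.593 and 0.629 RPKM (log2 change -1.53 ± 0.089). FOXM1 fell from 17.5, 17.4 and 18.4 to 5.38, 7.44 and 7.75 RPKM (-1.33 ± 0.17), and E2F1 from 3.86, 3.85 and 3.17 to 1.49, 1.55 and 1.52 RPKM (-1.03 ± 0.073). In each of these genes the groups did not overlap. In all, 8 of 11 tested genes of the E2F, retinoblastoma, FOXM1, B-MYB and MuvB list fell and 1 rose, MYBL1 (A-MYB) being among the fallen (-1.06 ± 0.17).

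The list of G1 cyclins and their kinases showed no such common fall: of 7 tested, 3 fell, 1 rose and 3 did not pass. Over all genes tested 35.5% were lower and 19.6% higher. CCND1 (cyclin D1), the growth-factor-driven cyclin, had 77.8, 72.0 and 67.03 RPKM in untreated and 55.9, 35.4 and 34.4 RPKM in ZM447439 cells (log2 change -0.81 ± 0.26, adjusted p = 0.0163); ZM447439 replicate 1 was the highest of its group, and the call was lost without untreated replicate 1 or ZM447439 replicate 2 or 3 (adjusted p = 0.0515 to 0.0669). CCNE2 (cyclin E2) had 0.702, 0.722 and 0.437 against 0.534, 0.571 and 0.539 RPKM and did not pass (-0.09 ± 0.076, adjusted p = 0.355). Its groups overlapped through untreated replicate 3, and without the libraries that stood apart it passed at -0.20. CCNE1 was under the filter at 0.173 to 0.277 RPKM in the 6 libraries. CDK2, the partner of E-type cyclins, was lower (-1.81 ± 0.16), but its span lies wholly within that of PMEL, a pigment gene called lower as well, and the reads of the 2 cannot be told apart. The member that rose, by 0.58, was CCNG1 (cyclin G1), a p53 target whose name does not refer to the G1 phase.

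The CDK inhibitors split, with 3 of 8 tested higher and 3 lower, beside 19.6% and 35.5% of all genes. CDKN1A (p21) had 22.5, 22.7 and 11.4 RPKM in the untreated and 122.6, 56.8 and 54.9 RPKM in the ZM447439 libraries (log2 change 1.98 ± 0.54, adjusted p = 0.00664). The groups did not overlap, yet untreated replicate 3 was the lowest and ZM447439 replicate 1 the highest by a wide margin; without both the change was 1.28 and no longer passed (adjusted p = 0.112). CDKN2D (p19) went the other way, from 9.41, 9.23 and 9.11 to 2.32, 1.79 and 1.83 RPKM (-1.98 ± 0.11), and so did CDKN2C (p18), from 5.56, 5.55 and 6.44 to 1.43, 1.83 and 1.85 RPKM (-1.53 ± 0.095). CDKN1C (p57) rose from a low level, 0.1795, 0.210 and 0.131 to 0.372, 0.585 and 0.669 RPKM (0.62 ± 0.22, adjusted p = 0.0243), a call lost in 6 of 18 settings: without the filter, under quantile normalization and without untreated replicate 1 or 3 or ZM447439 replicate 2 or 3 (adjusted p = 0.0521 to 0.116). CDKN1B (p27) did not pass (-0.18 ± 0.12, adjusted p = 0.222). Without both libraries that stood apart 1 inhibitor passed as higher and 3 as lower.

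Of 34 tested p53 target genes 21 were higher, 2 lower and 11 did not pass (median 0.56, against -0.07 for all genes and 19.6% of them higher); 12 of the 46 listed were under the filter. BTG2, an antiproliferative target, had 1.56, 1.58 and 0.612 RPKM in untreated and 7.10, 5.66 and 5.30 RPKM in ZM447439 cells (log2 change 1.94 ± 0.41). MDM2, an E3 ubiquitin ligase, had 2.01, 2.06 and 1.88 against 8.52, 4.32 and 4.39 RPKM (1.26 ± 0.38, adjusted p = 0.0116). ZM447439 replicate 1 was the highest of its group in both genes, and over the list its median lay 0.48 above the mean of replicates 2 and 3. By library, the list's median relative to the untreated mean was 0.82, 0.45 and 0.44 in the 3 ZM447439 libraries and 0.03, 0.04 and -0.06 in the untreated ones. Without the 2 libraries that stood apart 10 members passed as higher and 3 as lower, with a median of 0.47, and MDM2 did not pass (0.94, adjusted p = 0.111); it also missed the threshold without ZM447439 replicate 1 alone (0.97, adjusted p = 0.0595).

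**Figure D4:**
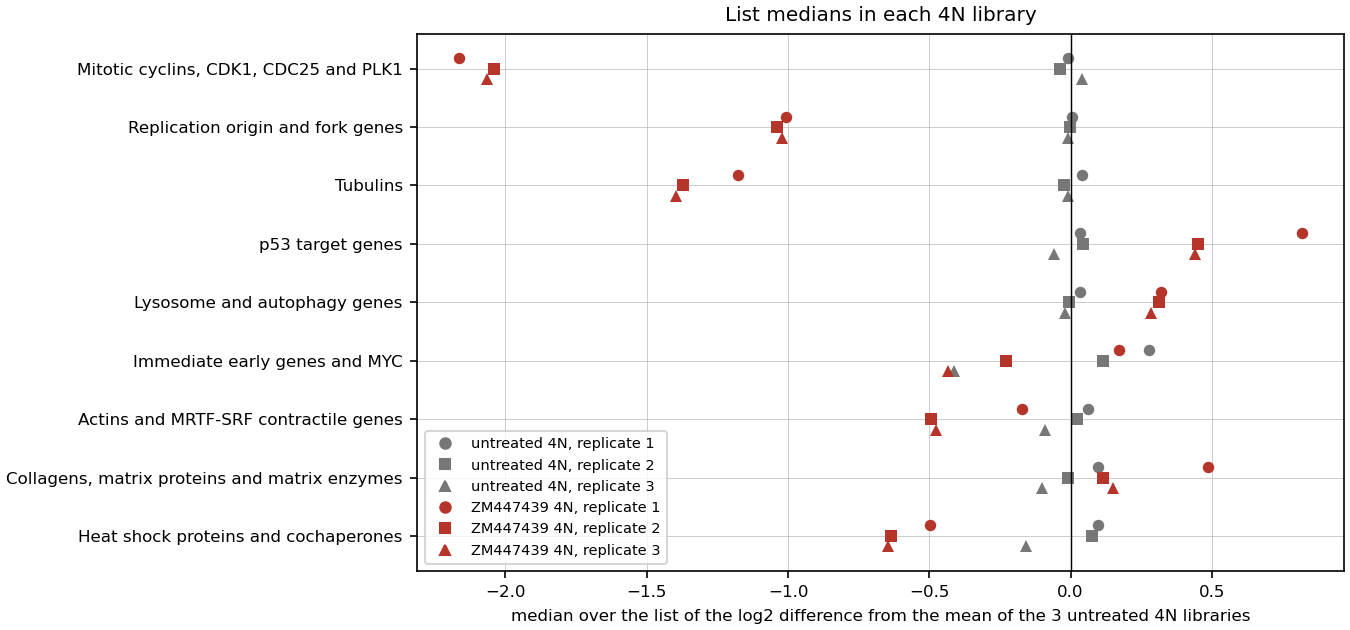
Median over 9 lists (rows) of the log2 difference of each 4N library from the mean of the 3 untreated 4N libraries (horizontal axis), 1 point per library, grey for untreated and red for ZM447439. The replication list is at -1.01, -1.04 and -1.02 in the 3 ZM447439 libraries, whereas p53 targets are at 0.82 in replicate 1 and at 0.45 and 0.44 in the others.

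Among protein-coding genes whose groups did not overlap, RRAD, BMF and IFITM10 had the largest rises. RRAD, a small GTPase of the RGK family, had 0.457, 0.478 and 0.309 RPKM in untreated and 3.44, 4.14 and 4.00 RPKM in ZM447439 cells (log2 change 2.25 ± 0.16, adjusted p = 5.22e-08). BMF, a BH3-only activator of apoptosis, had 0.763, 0.816 and 1.18 against 3.85, 7.57 and 8.04 RPKM (2.25 ± 0.34). The 3 ZM447439 values of RRAD agreed, while in BMF replicate 1 lay between the untreated libraries and the rest of its group. BBC3 (PUMA), another BH3-only gene and p53 target, had 0.321, 0.402 and 0.192 against 1.85, 1.17 and 1.08 RPKM (1.20 ± 0.24). BMF-AS1, which lies within BMF on the opposite strand and is named after its value was seen, had the largest rise of all tested genes (2.69 ± 0.36), and without strand the reads of the 2 genes cannot be told apart. Among 11 tested BCL2 family genes 3 rose and 1 fell, beside 19.6% of all genes higher and 35.5% lower. The sign of the list's median changed with the scaling (-0.02, or 0.06 to 0.11 rescaled).

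Brakes on growth-factor signalling were among the risen genes. PIK3IP1, an inhibitor of PI3 kinase, had 0.391, 0.359 and 0.364 RPKM in untreated and 3.32, 2.41 and 2.69 RPKM in ZM447439 cells (log2 change 1.92 ± 0.14). DDIT4, an inhibitor of mTORC1, had 12.5, 12.6 and 6.76 against 26.3, 33.8 and 35.7 RPKM (1.58 ± 0.26), with untreated replicate 3 the lowest. Its relative DDIT4L rose by 0.96 and KLF9, a Krüppel-like factor, by 1.01. Of 14 tested FOXO factors and PI3K-mTOR brakes 7 rose and 1 fell, beside 19.6% of all genes higher and 35.5% lower. MXD4, an antagonist of MYC at E-boxes, went from 2.72, 2.55 and 2.01 to 9.90, 9 and 8.94 RPKM (1.75 ± 0.14), and YPEL3, a growth-suppressing gene, from 1.51, 1.49 and 1.49 to 6.10, 5.64 and 6.08 RPKM (1.69 ± 0.13).

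Lysosome and autophagy genes rose by small amounts in large number: 20 of 34 tested were higher and 3 lower. Among all genes tested 19.6% were higher and 35.5% lower. The list's median was 0.30, and it was 0.32, 0.31 and 0.28 in the 3 ZM447439 libraries. GABARAPL1, an autophagosome protein of the ATG8 family, had 0.797, 0.878 and 0.619 RPKM in untreated and 3.07, 2.55 and 2.55 RPKM in ZM447439 cells (log2 change 1.35 ± 0.12). SQSTM1 (p62), an autophagy receptor, had 12.5, 12.1 and 12.8 against 19.8, 33.7 and 33.3 RPKM (1.14 ± 0.28). NEU1, a lysosomal sialidase, rose by 0.89. In SQSTM1 and NEU1, ZM447439 replicate 1 was the lowest of its group but above all untreated libraries. The count of higher members was 26 to 29 under the other scalings.

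Secreted and inflammatory genes gave few but large changes. CCL2, a chemokine for monocytes, had 5.78, 5.35 and 5.38 RPKM in untreated and 19.7, 23.8 and 24.0 RPKM in ZM447439 cells (log2 change 1.93 ± 0.15, adjusted p = 8.95e-08). IL1B (interleukin 1 beta) had 1.63, 1.59 and 0.848 against 4.91, 4.01 and 4.29 RPKM (1.43 ± 0.20), and LIF, a cytokine of the interleukin 6 family, 22.8, 23.1 and 20.9 against 38.1, 45.1 and 42.1 RPKM (0.89 ± 0.13). All 3 had groups that did not overlap. They are among the 4 of 11 tested genes of the NF-kB and secreted inflammatory list that rose, while none fell and 7 did not pass. The shares over all genes tested were 19.6% higher and 35.5% lower. Without both libraries that stood apart 4 still rose and none fell, but the list's median went from 0.31 to 0.04. Leaving out the 6 libraries that stood apart, 1 in each group, gave 5 higher and 3 lower members. TSLP, an epithelial cytokine, had 0.799, 0.971 and 0.725 against 2.48, 4.66 and 4.84 RPKM (1.71 ± 0.23). VEGFA, the angiogenic factor, had 10.9, 11.6 and 12.6 against 30.5, 31.7 and 30.5 RPKM (1.37 ± 0.14).

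Of 19 tested interferon-stimulated and nucleic-acid sensing genes 7 rose, 1 fell and 11 did not pass (median 0.19). Among all genes tested 19.6% were higher and 35.5% lower. Under other scalings 9 to 15 of the 19 rose. STAT2, a subunit of the interferon-activated factor, rose by 0.84 from 3.28, 3.36 and 3.69 to 6.32, 6.50 and 6.89 RPKM, and IFIT2 by 0.95, although IFIT2 lies within the span of LIPA. OAS3, a sensor of double-stranded RNA, was the 1 that fell (-0.77 ± 0.079). IFITM10, which shares the family name of the interferon-induced IFITM genes, was among the largest rises, from 1.26, 1.24 and 1.18 to 7.07, 8.04 and 7.61 RPKM (2.22 ± 0.20), with 86.7% of its span shared with a neighbour. Of 13 MHC class I and peptide loading genes 1 rose (TAPBP, 0.19 ± 0.073) and 2 fell, TAP2 (-0.69 ± 0.058) and ERAP1 (-0.19 ± 0.039). TAP2 lies wholly within AL669918.1 on the same strand (-0.64), and 39.7% of ERAP1 overlaps CAST on the opposite strand (-0.20). Reads of either pair could be split or shared. The direction turned with the scaling, since 4 to 9 rose and 1 or 2 fell under the others, and without both libraries that stood apart none rose and 3 fell. The call of TAPBP was lost in 7 of 22 settings, among them without untreated replicate 2 or 3 or ZM447439 replicate 1 or 3 (adjusted p = 0.0672 to 0.133) and without both libraries that stood apart (0.12, adjusted p = 0.287). That of ERAP1 was lost under quantile normalization and on summed reads (adjusted p = 0.177 and 0.222).

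Histone genes parted by type. Of 8 tested replication-dependent histone genes 6 rose (median 0.67), whereas of 10 replication-independent variants 7 fell. Over all genes tested 19.6% were higher and 35.5% lower. H2BC21 had 0.677, 0.789 and 0.228 RPKM in untreated and 4.19, 2.15 and 2.34 RPKM in ZM447439 cells (log2 change 1.67 ± 0.28), and H1-2, a linker histone, 6.01, 5.06 and 4.06 against 11.5, 10.7 and 8.79 RPKM (0.98 ± 0.19). H2AX, the variant marked at DNA breaks, had 162, 164 and 168 against 33.7, 37.5 and 37.3 RPKM (-2.17 ± 0.073), and H2AZ1 228, 222 and 265 against 69.2, 101 and 97.9 RPKM (-1.42 ± 0.19). The library captured polyadenylated RNA, so the main, non-polyadenylated output of replication-dependent histone genes was not measured. In these genes untreated replicate 3 lay 0.41 below the other untreated libraries over the list, and 4 rose and 1 fell without the libraries that stood apart.

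Tubulins fell together, 11 of 12 tested and 10 by at least 2-fold (median -1.33). TUBB4B, a beta-tubulin, had 372, 352 and 380.5 RPKM in untreated and 85.2, 93.8 and 89.3 RPKM in ZM447439 cells (log2 change -2.04 ± 0.12). TUBB had 632, 599.6 and 634 against 209.7, 175 and 175 RPKM (-1.74 ± 0.15) and TUBA1C 19.5, 18.8 and 18.3 against 6.08, 5.63 and 5.56 RPKM (-1.63 ± 0.17). Tubulin genes are near copies of each other and have many processed pseudogenes, so reads could be divided among them. The nuclear lamina followed, with 9 of 10 lower: LMNB1 (lamin B1) fell from 3.41, 3.25 and 3.36 to 0.605, 0.687 and 0.670 RPKM (-1.73 ± 0.078), LMNB2 by 1.70 and TMPO, a lamina-associated protein, by 1.93.

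Actin and contractile genes fell less, 17 of 32 tested being lower and 2 higher, none by 2-fold (median -0.34). Over all genes tested 35.5% were lower and 19.6% higher. ACTB had 206, 206 and 184 RPKM in untreated and 143, 106 and 105 RPKM in ZM447439 cells (log2 change -0.76 ± 0.10), ACTG1 488, 478 and 440.5 against 362, 318 and 312 RPKM (-0.51 ± 0.065), and TPM3, a tropomyosin, 14.7, 14.0 and 13.4 against 7.49, 7.50 and 7.24 RPKM (-0.88 ± 0.074). In both actins ZM447439 replicate 1 lay between the untreated libraries and the other 2. ACTN1, an alpha-actinin, fell by 0.72. The list's median in the 3 ZM447439 libraries was -0.17, -0.49 and -0.48, and without the libraries that stood apart 23 members fell.

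Among immediate early genes and MYC 5 of 25 passed, 4 of them lower; under other scalings 1 to 3 rose and 2 or 3 fell, with more higher than lower under quantile normalization. FOSL1 (FRA1), a partner of JUN, had 53.01, 49.9 and 42.5 RPKM in untreated and 20.0, 17.5 and 16.6 RPKM in ZM447439 cells (log2 change -1.40 ± 0.17). KLF2 had 13.0, 10.3 and 8.27 against 8.95, 2.15 and 2.10 RPKM (-1.43 ± 0.45, adjusted p = 0.0143) and KLF6 18.3, 16.5 and 15.4 against 13.1, 5.22 and 4.99 RPKM (-1.19 ± 0.41). The spread within groups was large here: ZM447439 replicate 1 stood far above the other 2 in both Krüppel-like factors. The call of KLF6 was lost in 6 of 22 settings, among them without untreated replicate 1 or 2 or ZM447439 replicate 2 or 3 (adjusted p = 0.0517 to 0.0973), and that of KLF2 in 4, among them without untreated replicate 1 or ZM447439 replicate 2 or 3 (adjusted p = 0.0542 to 0.0714). Over the list, untreated replicate 3 lay 0.62 below and ZM447439 replicate 1 lay 0.56 above the other libraries of its group, and without both 8 members fell and none rose. Of 20 YAP-TEAD targets 2 rose, 6 fell and 12 did not pass, and the sign of the median changed with the scaling (-0.06, or 0.02 to 0.12 rescaled). Among all genes tested 35.5% were lower and 19.6% higher. Without both libraries that stood apart 2 targets rose and 6 fell, with a median of -0.24. Leaving out the 6 libraries that stood apart gave 3 higher and 14 lower. FJX1 fell by 0.98 and AXL, a receptor kinase, by 0.56.

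Matrix and growth-factor genes changed little as lists. Over all genes tested 19.6% were higher and 35.5% lower. Of 23 collagens, matrix proteins and matrix enzymes 6 rose and none fell: MMP2, a gelatinase, had 16.9, 15.8 and 15.4 RPKM in untreated and 24.5, 22.6 and 22.5 RPKM in ZM447439 cells (log2 change 0.52 ± 0.10), and COL6A1 rose by 0.52. Over the list ZM447439 replicate 1 lay 0.46 above the other ZM447439 libraries; without it and untreated replicate 3 the list had 3 higher and none lower and its median went from 0.25 to 0.10, and without the 6 libraries that stood apart 9 rose and 7 fell. CHI3L1, a secreted glycoprotein, had 0.707, 0.588 and 0.284 against 1.30, 1.54 and 1.75 RPKM (1.00 ± 0.34, adjusted p = 0.0206) and did not pass without the 2 libraries that stood apart (0.90, adjusted p = 0.0957), nor without untreated replicate 3 or ZM447439 replicate 3 alone (adjusted p = 0.084 and 0.0634). Of 6 insulin-like growth factor binding proteins IGFBP4 rose by 0.50. IGFBP3 had 26.2, 18.5 and 10.1 RPKM in untreated and 13.4, 5.46 and 5.18 RPKM in ZM447439 cells (-1.17 ± 0.47, adjusted p = 0.0473), with groups that overlapped; it did not pass in 10 of 20 settings, among them all 3 other scalings and without untreated replicate 1 or 2 or ZM447439 replicate 2 or 3 (adjusted p up to 0.18). PDGFRB, a receptor of platelet-derived growth factor, was a larger change, from 0.980, 0.956 and 1.10 to 5.13, 4.02 and 3.95 RPKM (1.68 ± 0.14). VIM (vimentin) fell by 0.49 from 908, 890.1 and 743 to 613, 608 and 586 RPKM.

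Chaperone genes were lower. Of 19 tested heat shock proteins and cochaperones 14 fell and 1 rose (median -0.61), beside 35.5% of all genes lower and 19.6% higher. HSPA8, the constitutive HSP70, had 376, 365 and 315 RPKM in untreated and 185, 139.8 and 139 RPKM in ZM447439 cells (log2 change -1.19 ± 0.13), and HSP90AA1 34.8, 34.3 and 28.8 against 16.6, 14.8 and 14.9 RPKM (-1.05 ± 0.14). DNAJB1, a cochaperone, had 28.7, 26.1 and 9.53 against 11.4, 6.44 and 5.94 RPKM (-1.29 ± 0.46, adjusted p = 0.029); its groups overlapped because untreated replicate 3 was low, and 84.6% of its span is shared with TECR. The call of DNAJB1 was lost in 7 of 22 settings, among them without untreated replicate 1 or 2 or ZM447439 replicate 2 or 3 (adjusted p = 0.0837 to 0.119). Over the list untreated replicate 3 lay 0.23 below the other untreated libraries, and 17 members fell without it and ZM447439 replicate 1.

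Of 25 ER stress and ATF4 response genes 10 (40%) fell and 2 rose, beside 35.5% of all genes lower and 19.6% higher. The balance turned with the scaling, with 2 rising and 4 falling under quantile normalization and 4 rising and 3 falling on summed reads. PSAT1, of serine synthesis, fell from 2.67, 1.93 and 4.55 to 0.824, 1.12 and 1.10 RPKM (log2 change -1.17 ± 0.22), and MTHFD2, of mitochondrial folate metabolism, by 1.03. Glycolysis and hypoxia genes were mixed, with 12 of 26 lower and 6 higher (11 and 3 without both libraries that stood apart); ENO1 (enolase 1) fell from 129, 126 and 127 to 70.6, 81.9 and 80.2 RPKM (-0.72 ± 0.11) and ENO2 by 0.58. Cholesterol and fatty acid synthesis genes had a median of 0.35 but only 4 of 30 passed as higher and 3 as lower; without the 6 libraries that stood apart 19 rose and 5 fell, and without the 2 of this comparison 2 and 2. TM7SF2, a sterol reductase, had 0.995, 1.07 and 1.54 against 6.68, 5.02 and 5.42 RPKM (1.87 ± 0.25) and MSMO1, a methylsterol oxidase, 3.35, 3.56 and 3.71 against 9.77, 6.52 and 6.78 RPKM (1.00 ± 0.36, adjusted p = 0.028). In both ZM447439 replicate 1 was the highest, and MSMO1 did not pass without it and untreated replicate 3 (0.85, adjusted p = 0.141), nor without it or any 1 untreated replicate alone (adjusted p = 0.0527 to 0.101).

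Ribosome biogenesis and ribosomal protein genes behaved differently from each other. Of 19 nucleolar biogenesis genes 15 fell (median -0.41; 12 to 13 fell under other scalings). FBL (fibrillarin), the methyltransferase of ribosomal RNA, had 10.1, 10.2 and 10.3 RPKM in untreated and 5.00, 5.82 and 5.57 RPKM in ZM447439 cells (log2 change -0.85 ± 0.079), DKC1 (dyskerin) fell by 0.86 and NOP56 by 0.81. Of 57 cytosolic ribosomal protein genes 19 fell and 1 rose, beside 35.5% of all genes lower and 19.6% higher. The direction turned with the scaling: 21 rose and 2 fell under quantile normalization, and 10 rose and 1 fell when rescaled to the summed reads. Without both libraries that stood apart 12 fell and 1 rose. RPL35 fell by 0.39. Of 13 mitochondrially encoded transcripts 3 rose, MT-CO1, MT-CO2 and MT-ATP8, by 0.27 to 0.35, beside 19.6% of all genes higher. None passed under quantile normalization. None passed without both libraries that stood apart either, where the list's median went from 0.13 to 0.07. All 3 calls were lost without ZM447439 replicate 1 alone (adjusted p = 0.0709 to 0.0891), those of MT-CO1 and MT-ATP8 also without untreated replicate 1 and that of MT-ATP8 without ZM447439 replicate 2.

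Beyond protein-coding genes, of which 1668 were higher and 3152 lower among 7750 tested (2507 and 2043 on summed reads), classes of noncoding genes differed in balance. Of 283 tested lincRNA genes 122 were higher and 42 lower (median 0.20), and 128 to 149 were higher under other scalings. Of 1839 processed pseudogenes 109 were higher and 665 lower (median -0.15), and 414 to 504 were lower under other scalings. Reads from a pseudogene and its parent gene are hard to separate. Of 11 noncoding genes that fell by at least 4-fold, picked after their values were seen, 10 overlap a protein-coding gene on the opposite strand. For the 7 that are no processed pseudogene a fallen gene lies opposite: AC008870.3 (-2.69) lies wholly within PLK1 (-2.69), PRC1-AS1 (-2.13) within PRC1 (-2.11), and 69.8% of AC106820.5 (-2.72) within CCNF (-2.17). The other 4 are processed pseudogenes, CDC20P1 (-2.17), UBE2SP2 (-2.10), CKS1BP3 (-2.05) and UBE2SP1 (-2.04). UBE2SP2 lies within ZNF286B (-0.64) and UBE2SP1 within ZNF286A (-1.03), which fell less, the genes around CKS1BP3 were not among those tested, and CDC20P1 overlaps no protein-coding gene. Of 1328 antisense genes 341 were higher and 392 lower, a balance that turned under all 3 other scalings (416 to 452 higher and 261 to 319 lower), and without strand their reads cannot be told apart from those of the genes they overlap.

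Cytochalasin D 4N cells are the nearest group by design, also sorted for 4N content and also under a drug that blocks division. Along the main axis of variation over the 18 libraries (67.1% of the variance), the ZM447439 4N libraries lay at 0.01 to 0.84, between untreated 4N (-48.5 to -47.9) and cytochalasin D 4N (32.0 to 33.4). Tested directly, 3622 genes (27.8%) were higher and 2050 (15.7%) lower in ZM447439 4N than in cytochalasin D 4N. With libraries rescaled to a common median ratio these became 2834 and 2758. Both drugs share the same untreated controls in their own comparisons, so only this direct test and the levels are given.

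The mitotic and replication lists were higher in ZM447439 than in cytochalasin D cells: 8 of 8 Aurora and passenger genes, 12 of 16 mitotic cyclins and kinases, 23 of 25 kinesins and regulators and 28 of 29 replication genes passed as higher. Relative to untreated 4N cells, the median of the replication list was -1.02 in ZM447439 4N and -1.71 in cytochalasin D 4N cells, and that of the Aurora list -2.17 and -2.89. All 12 tubulins were higher too, with medians of -1.33 and -2.34. TUBA1B had 60.4, 53.6 and 51.8 RPKM in cytochalasin D and 261, 235 and 232 RPKM in ZM447439 cells, between the cytochalasin D and the untreated level of 701, 658 and 716 RPKM (log2 difference between the drugs 2.12 ± 0.23). Nucleolar genes were higher in 18 of 19, and p53 targets in 4 of 34 with 2 lower, beside 27.8% of all genes higher and 15.7% lower. In the other direction 16 of 19 interferon-stimulated genes, 9 of 13 MHC class I genes and 19 of 34 lysosome genes were lower in ZM447439 cells.

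**Figure D5:**
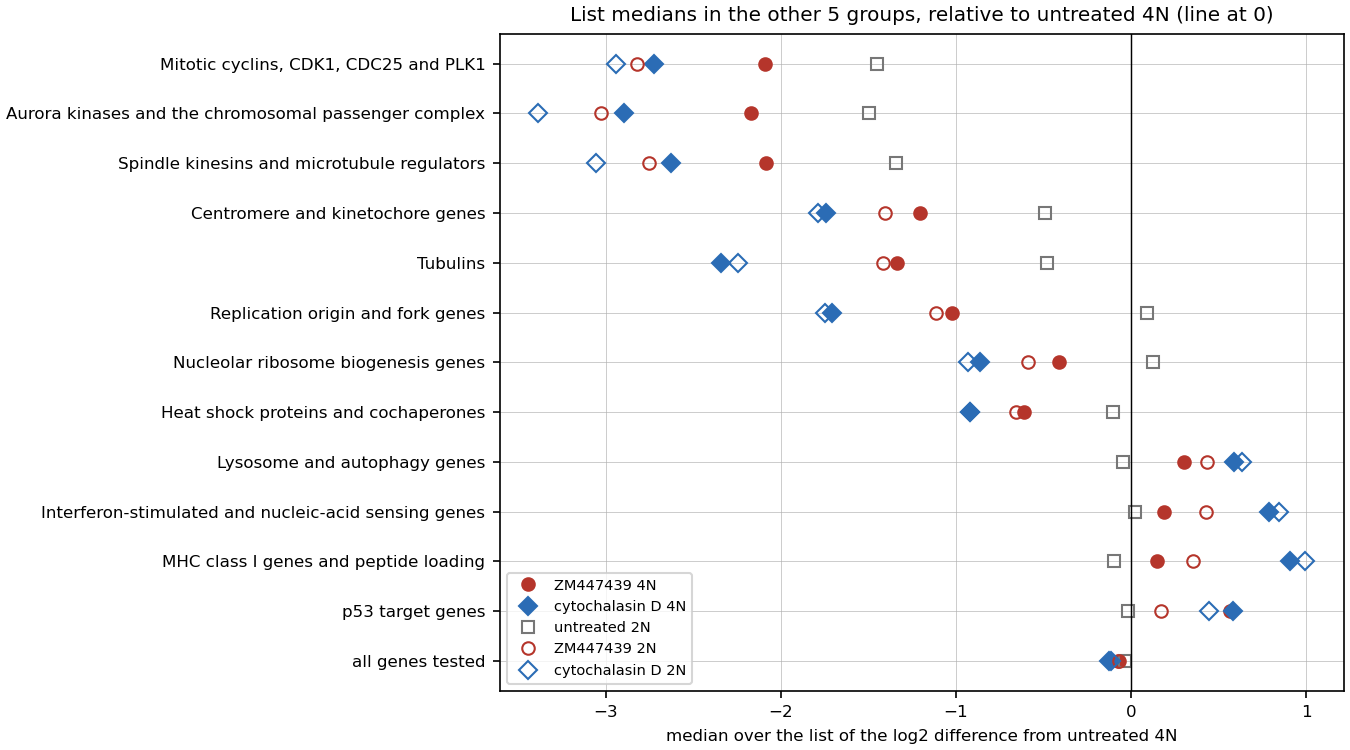
Median log2 difference from untreated 4N (line at 0) of 12 lists and of all genes tested in the other 5 groups of treatment and sort, filled for 4N and open for 2N. ZM447439 4N lies between untreated 4N and cytochalasin D 4N for the mitotic, replication and tubulin lists, and the interferon list is at 0.19 in ZM447439 4N against 0.79 in cytochalasin D 4N.

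Single genes set the drugs apart by more than the lists. ANKRD1, a YAP-TEAD target, had 13.4, 6.31 and 5.52 RPKM in cytochalasin D and 92.4, 44.6 and 38.5 RPKM in ZM447439 cells (log2 difference 2.72 ± 0.37, adjusted p = 5.34e-05), and the untreated level was 32.8, 30.3 and 29.7 RPKM. DKK1, an antagonist of Wnt signalling, had 2.31, 1.99 and 1.67 against 8.63, 10.6 and 9.41 RPKM (2.01 ± 0.10). AMIGO2, an adhesion protein, had 16.7, 12.4 and 11.7 against 65.7, 52.1 and 49.6 RPKM (2.00 ± 0.22). Every cytochalasin D value of these genes was below every ZM447439 value. CPA4, a carboxypeptidase, and ADAMTS1, a metalloproteinase, were also higher in ZM447439 cells, by 1.91 and 1.83.

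Lowest in ZM447439 relative to cytochalasin D cells was CHI3L1, with 18.4, 26.1 and 27.3 RPKM in cytochalasin D and 1.30, 1.54 and 1.75 RPKM in ZM447439 cells (-3.57 ± 0.34, adjusted p = 2.83e-06). ITGA10, a collagen-binding integrin, had 6.63, 6.79 and 6.83 against 0.946, 0.817 and 0.849 RPKM (-2.40 ± 0.10). DDIT4L had 8.42, 12.2 and 13.0 against 2.34, 2.51 and 2.63 RPKM (-1.94 ± 0.23). In each of these genes the ZM447439 libraries lay above the untreated and below the cytochalasin D libraries. SCG2 (secretogranin II), SOD3 (extracellular superoxide dismutase) and ZNF467, a zinc finger gene, were lower by 1.94, 1.66 and 1.64.

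The last question was whether ZM447439 did the same in 4N as in 2N cells. The difference of the 2 effects was tested as an interaction. In 4N cells 459 genes (3.52%) had a higher and 858 (6.58%) a lower effect. Effects carry their sign, so a lower effect on a gene that fell is a deeper fall. With same-numbered 2N and 4N libraries of a treatment as a random block 2662 genes passed. That they share a culture was assumed from their numbers. The total of 1317 was sensitive to single libraries, being 784 and 814 when ZM447439 4N replicate 3 or 2 was left out, 841 without untreated 4N replicate 1 and 2429 without ZM447439 2N replicate 1, and 4870 genes passed without the 6 libraries that stood apart, 1 in each group. The balance depended on the scaling: rescaled to the summed reads, 1017 had a higher and 297 a lower effect. Of the mitotic lists, 17 of 25 kinesins and regulators, 10 of 29 anaphase-promoting complex genes, 9 of 25 centromere genes, 8 of 16 mitotic cyclins and kinases and 5 of 8 Aurora and passenger genes had a lower effect in 4N cells, and in all 3 rescalings the counts of lower members still exceeded those of higher ones. Replication genes went the other way, with 12 of 29 higher and none lower, as did nucleolar genes with 8 of 19.

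As levels, relative to untreated 4N cells, the list of mitotic cyclins and kinases had a median of -1.45 in untreated 2N, -2.09 in ZM447439 4N and -2.82 in ZM447439 2N cells. The median of this list in treated 4N cells was thus below that in untreated 2N cells, a difference that was not tested. Its members did not all follow. PLK1 and CCNB1 were below every untreated 2N value in all treated 4N libraries, while the values of CDK1 overlapped. The replication list had medians of 0.09, -1.02 and -1.11 in the same order, so its medians in the 2 sorts lay close in either treatment. Medians hide single members, of which 12 of 29 passed in the interaction.

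UBE2C shows the first kind. In 2N cells it stood at 6.66, 7.28 and 3.45 RPKM untreated and 3.72, 1.92 and 1.68 RPKM with ZM447439, while in 4N cells it stood at 47.1, 46.6 and 48.4 and 5.93, 6.31 and 6.87 RPKM, so that the fall was larger where the untreated level was high (interaction -1.70 ± 0.39, adjusted p = 0.0138). CDK1 had 2.37, 2.97 and 1.66 and 1.82, 0.910 and 0.737 RPKM in 2N cells (-1.68 ± 0.35). That call was lost with a pseudocount of 0.1 (adjusted p = 0.0551) and with values not divided by gene length (adjusted p = 0.0568). UNG shows the other kind: it fell in 2N cells, from 5.13, 5.16 and 5.77 to 2.14, 1.83 and 1.90 RPKM, and was 1.39, 1.43 and 0.924 and 1.70, 1.71 and 1.65 RPKM in 4N cells (1.59 ± 0.13). The ZM447439 libraries of both sorts had similar UNG levels, and the untreated ones did not. RRAD rose in both sorts, in 2N cells from 0.802, 0.937 and 0.814 to 2.54, 1.82 and 1.89 RPKM, and by more in 4N cells (1.33 ± 0.23).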

How the data were processed

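The authors deposited 1 table of RPKM values for 18 polyadenylated RNA libraries of RPE1 cells. Per the submitters' processing notes, CASAVA 1.8.2, TopHat2 and edgeR were used with the hg19 build; the read counter and the scaling are not given in the sources used here. Values worth under 200 reads came out whole (within 0.05 reads) in 88.8% to 89.4% of cases with the genomic span as length, which was therefore taken as the length. GENCODE 29 and RefSeq, of another build, gave spans, names, overlaps and promoters.

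Genes that averaged 0.5 RPKM or more across the 18 libraries entered limma 3.58.1 in R 4.3.3 on log2(RPKM + 0.5), so that fold changes of low genes are understated. The model had a mean for each of the 6 groups (12 residual degrees of freedom), a trend on the mean level, two-sided tests and Benjamini-Hochberg adjustment at 0.05. The fit was tested on simulated data. Errors of fold changes are SE. Lists were counted, not tested. Same-numbered ZM447439 4N and cytochalasin D 4N libraries deviated together (correlations 0.248 to 0.523), as did the 2 sorts of each treatment compared, but untreated and ZM447439 4N libraries did not. Some differently numbered libraries did so as well. Cytochalasin D 4N replicate 2 with ZM447439 4N replicate 3 gave 0.343, and untreated 2N replicate 1 with untreated 4N replicate 2 gave 0.258. The correlations therefore do not show that equal numbers belong together.

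Genes were named by rule: the 12 largest rises and falls that passed without overlap, the 3 largest passing changes per list, a set of regulators chosen for their role (1 gene of it is not reported here), and the 6 largest in each direction of the other 2 tests. The members and lists were chosen with earlier results of these data known. Alternatives were other pseudocounts, filters, scalings, blocks, limma-voom on whole reads recovered from the RPKM, and leaving out libraries.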

Additional observations from a re-analysis of the deposited data

Results flagged for a closer look

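The effect of ZM447439 differed between 4N and 2N cells in 1317 genes by the interaction term in limma (adjusted p under 0.05). The genes below had the largest such differences by the naming rule, each given as the log2 effect in 4N minus that in 2N cells with its SE. Higher and lower refer to the signed effect, so for a gene that fell in both sorts lower means a deeper fall in 4N cells.

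Higher in 4N cells was the effect on UNG, the uracil glycosylase (1.59 ± 0.13), KIF20A, a kinesin (1.39 ± 0.40), RRAD, an RGK GTPase (1.33 ± 0.23), PTX3, a secreted pentraxin (1.14 ± 0.18), G0S2, an inhibitor of triglyceride lipase (1.07 ± 0.27) and IL1B, interleukin 1 beta (1.03 ± 0.28). KIF20A fell in 2N cells from 22.8, 21.4 and 18.3 to 2.85, 0.941 and 0.941 RPKM. G0S2 went from 20.6, 22.4 and 18.3 to 6.01, 3.48 and 3.88 RPKM in 2N and from 16.2, 17.1 and 12.1 to 6.17, 7.84 and 7.13 RPKM in 4N cells. IL1B went from 2.94, 2.56 and 1.53 to 3.85, 2.70 and 2.98 RPKM in 2N cells, and PTX3, whose span lies within VEPH1, from 10.7, 10.9 and 10.5 to 5.34, 5.91 and 6.32 RPKM.

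Lower in 4N cells was the effect on UBE2C (-1.70 ± 0.39), CCNF (-1.68 ± 0.16), CDK1 (-1.68 ± 0.35), PIF1, a DNA helicase (-1.66 ± 0.14), HJURP (-1.61 ± 0.27) and CDKN2D (-1.60 ± 0.16). CDKN2D went from 2.47, 2.84 and 1.77 to 1.804, 1.67 and 1.53 RPKM in 2N cells and from 9.41, 9.23 and 9.11 to 2.32, 1.79 and 1.83 RPKM in 4N cells. PIF1 went from 0.606, 0.561 and 0.387 to 0.348, 0.207 and 0.208 RPKM in 2N cells. Out of 28 settings, the difference for KIF20A missed the threshold in 12 (adjusted p up to 0.110) and that for IL1B in 11 (up to 0.0942). Those for G0S2 and CDK1 missed it in 6 and 2.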

How the results depend on the processing

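No named gene that passed turned in any setting run. With libraries rescaled to the summed reads, more genes were higher than lower in the main comparison and in the interaction, the opposite of the balance on the deposited scale. Of 39 lists with a tested member, 5 turned in the balance of calls and 7 in the sign of the median under at least 1 of the 3 other scalings (10 in either). Of 125 genes named for the main comparison 102 kept their sign and their side of the threshold in every setting, as did 12 of 12 named against cytochalasin D and 8 of 12 named for the interaction; CDKN1B never passed and its change ranged from -0.27 to 0.07. Leaving out 1 library at a time gave 6438 to 6870 genes in the main comparison, 4771 to 5534 against cytochalasin D and 784 to 2429 for the interaction. Without a filter 11579 genes passed, and with a filter of 2 RPKM 3621 passed, 3148 against cytochalasin D and 481 for the interaction; more or fewer genes were tested there. The interaction gave 2662 genes with same-numbered sorts of a treatment as a random block. It gave 4870 without the 6 libraries that stood apart, and the cause of either change was not tested. With a replicate block the counts were 7825, 6421 and 1832. Same-numbered untreated and ZM447439 4N libraries had correlations of deviations of 0.24, -0.148 and 0.248, so their numbers are not taken as pairs. Low levels limit precision: 16.0% of tested genes with whole reads held under 100 reads per library.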

Other observations

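The stress-inducible HSP70 genes were uneven within both groups, and were singled out after their values were seen. HSPA6 read 27.7, 24.4 and 0.126 RPKM in the 3 untreated 4N libraries and 2.49, 0.0862 and 0.0636 RPKM in the 3 ZM447439 4N libraries, and its log2 change of -2.93 ± 1.51 did not pass (adjusted p = 0.117). HSPA1A read 486, 443 and 54.3 RPKM in untreated and 157, 34.2 and 28.6 RPKM in ZM447439 4N cells (-2.07 ± 1.11, adjusted p = 0.131), and its near-identical copy HSPA1B read 515, 467 and 57.7 against 163, 38.7 and 30.6 RPKM. In all 3 genes untreated replicate 3 was far below the other untreated libraries and ZM447439 replicate 1 far above the other ZM447439 libraries, so that the groups overlapped. In the 2N sort HSPA1A read 401, 353 and 32.2 RPKM in untreated and 172, 46.0 and 40.8 RPKM in ZM447439 cells, and in cytochalasin D 4N cells 158, 33.4 and 35.4 RPKM.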
